A study of Arabidopsis thaliana with 12 samples.

Results

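The 49 genes described here are nuclear genes for proteins of the light reactions of photosynthesis in Arabidopsis thaliana. They were picked by locus identifier from a list of photosynthesis genes, out of 33201 rows in each of 4 comparison tables. They fall into 6 genes of the photosystem I antenna (LHCA1 to LHCA6), 15 of the photosystem II antenna (LHCB1.1 to LHCB7), 12 photosystem I subunits (PSA genes), 11 photosystem II subunits (PSB genes) and 5 electron carriers, namely the Rieske protein gene PETC, the plastocyanin genes PETE1 and PETE2 and the ferredoxin genes FD1 and FD2. All 49 had a row in each table, and 48 were tested in all 4. The other, LHCB1.3 (AT1G29930), carries a mark for too many reads and is listed at 0 in 3 of the groups, so it was left out of every comparison.

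RNA was taken from seedlings 5 days old. The 12 samples form 4 groups of 3, namely Col-0, the wild type, and nup1-1, a mutant of the nuclear pore gene NUP1, each on MS medium alone (untreated) or on MS medium with abscisic acid (ABA), a plant hormone of seed dormancy and water stress. The ABA dose, the nature of the nup1-1 lesion and whether the 3 samples of each group were grown on plates of their own are not stated in the sources used here, so the spread behind the p-values may be technical. NUP1 transcript was still present in the mutant groups, with a log2 difference from Col-0 of -0.47 ± 0.23 untreated and -0.88 ± 0.15 on ABA, and with no value per sample the single labels could not be checked.

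In the thylakoid membrane, antenna proteins bind chlorophyll and pass light energy to the photosystem cores. Photosystem II, with the help of extrinsic proteins such as PSBO, PSBP and PSBQ, takes electrons from water. They pass through the cytochrome b6f complex, which holds the Rieske protein, to plastocyanin, photosystem I and ferredoxin. The reaction centre proteins are encoded in the plastid, so the genes here code for antennae, peripheral subunits and mobile carriers that chloroplasts import. Most are among the transcripts that rise strongly when seedlings green in light.

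The authors' deposited tables hold 1 FPKM value per group (fragments per kilobase of transcript, scaled to the library's reads), with no value per sample. Errors after ± are therefore standard errors on the log2 scale, worked back from the test statistic of each gene, and q-values for single comparisons are those deposited, with q under 0.05 called a change. These errors can be too small for strong changes. Among the genes whose deposited p was above its lowest value, the error that p implies was up to 1.33 times the printed one on ABA in nup1-1 (LHCB6) and up to 1.102 times in Col-0 (LHCB6), and 41 of 48 genes in nup1-1 and 15 in Col-0 were at the lowest p, where this could not be checked. Each table had been scaled separately. Col-0 on ABA stood 1.15 times higher in the table that compares genotypes. Untreated nup1-1 stood at 0.871 times its ABA table level in the table that compares untreated genotypes. Both genotype comparisons thus depend on this scaling, and levels are compared only within a table. Group levels given below for the effect of ABA come from the Col-0 ABA table and the nup1-1 ABA table. Depth per sample is unknown. Of the 49 rows, 16 overlap another coding gene, among them those of PSBR, LHCB1.5 and LHCB2.3, and how reads were shared there is not stated in the sources used here.

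Promoter sequences of 6 genes are shown because these genes mark the ends of the range of responses below. PSBR had the deepest fall on ABA in nup1-1, LHCB2.3 the largest genotype difference in both media, and the pairs LHCB4.1 with LHCB4.3 and FD1 with FD2 are relatives that behaved differently. Each run is the 250 bases before the gene start in RefSeq TAIR10.1, 5′ to 3′ on the gene's own strand, in lower case. Capitals mark the letters CACGTG (the G-box core), GATAAG (the I-box core), CCAAT or ACGTGNC (an ABA-response-element-like core), on either strand. The stretches lie at chr1:29735702-29735951, plus strand for PSBR, chr3:10255656-10255905, plus strand for LHCB2.3, chr5:208616-208865, plus strand for LHCB4.1, chr2:16745378-16745627, plus strand for LHCB4.3, chr1:3663937-3664186, plus strand for FD1 and chr1:22444057-22444306, plus strand for FD2.
PSBR: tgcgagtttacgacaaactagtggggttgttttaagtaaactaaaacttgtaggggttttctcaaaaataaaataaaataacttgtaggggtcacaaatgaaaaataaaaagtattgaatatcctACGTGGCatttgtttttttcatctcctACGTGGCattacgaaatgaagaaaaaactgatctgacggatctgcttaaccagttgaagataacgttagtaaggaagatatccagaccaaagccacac
LHCB2.3: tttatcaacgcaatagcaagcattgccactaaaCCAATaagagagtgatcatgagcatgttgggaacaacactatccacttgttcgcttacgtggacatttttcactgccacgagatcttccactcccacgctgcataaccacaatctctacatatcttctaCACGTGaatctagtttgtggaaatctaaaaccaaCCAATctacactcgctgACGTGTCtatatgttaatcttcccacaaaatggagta
LHCB4.1: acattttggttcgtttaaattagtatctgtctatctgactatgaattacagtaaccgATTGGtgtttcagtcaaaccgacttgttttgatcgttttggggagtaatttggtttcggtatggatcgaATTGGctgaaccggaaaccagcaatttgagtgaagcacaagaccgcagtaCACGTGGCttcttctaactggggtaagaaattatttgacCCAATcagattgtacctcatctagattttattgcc
LHCB4.3: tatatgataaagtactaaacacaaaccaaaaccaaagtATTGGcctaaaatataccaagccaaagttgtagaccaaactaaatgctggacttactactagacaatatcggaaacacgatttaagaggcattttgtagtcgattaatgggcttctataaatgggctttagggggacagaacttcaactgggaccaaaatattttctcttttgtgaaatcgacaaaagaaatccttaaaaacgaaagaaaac
FD1: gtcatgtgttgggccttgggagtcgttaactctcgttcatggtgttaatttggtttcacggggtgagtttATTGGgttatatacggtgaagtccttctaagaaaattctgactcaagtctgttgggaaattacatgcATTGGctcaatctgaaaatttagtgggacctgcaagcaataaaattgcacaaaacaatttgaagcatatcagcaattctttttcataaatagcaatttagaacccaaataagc
FD2: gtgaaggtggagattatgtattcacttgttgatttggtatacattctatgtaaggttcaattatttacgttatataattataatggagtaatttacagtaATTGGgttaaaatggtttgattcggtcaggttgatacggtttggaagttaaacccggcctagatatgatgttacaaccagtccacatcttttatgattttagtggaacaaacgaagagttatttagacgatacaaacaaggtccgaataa
In PSBR, ACGTGNC matched at 125 to 119 and 98 to 92 bases before the start, with no G-box core in the window. LHCB2.3 held a G-box core at 88 to 83 bases and an ACGTGNC match at 37 to 31 bases, and LHCB4.1 held one at 74 to 69 bases that overlaps its ACGTGNC match. The windows of LHCB4.3, FD1 and FD2 held CCAAT and none of the other 3 motifs. Over all 49 genes, ACGTGNC was found in 16 windows (32.7%), beside 8.57% of 27443 coding-gene windows of the same length. CACGTG was in 10 (20.4%, beside 6.49% of all windows), and all 10 of these held an ACGTGNC match too, beside 4.23% of all windows with both. These strings share letters and can overlap, so their counts are not independent. GATAAG was in 12 (24.5%, beside 12.3%) and CCAAT in 32 (65.3%, beside 46.0%). A match is a string of letters, not a shown binding site.

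In untreated Col-0 these transcripts were among the most abundant of the seedling. The 48 genes with values held 17.6% of the summed FPKM of all rows (3 rows with failed estimates left out), and 32 of them were among the 50 rows with the highest FPKM. LHCB1.5, a gene of the main trimeric antenna of photosystem II, ranked first of the rows left in, with 17116 FPKM in the authors' deposited Col-0 ABA table. In Col-0 on ABA the share was 9.96%, with 26 of the genes among the top 50 and LHCB1.5 still first. Untreated nup1-1 had 14.3% and 28 genes in the top 50. On ABA the mutant had 3.44%, and 2 of the genes were in the top 50, LHCB1.2 standing sixth. These shares have no error, since the tables hold 1 value per group. The 3 rows left out include LHCB1.3, so the shares and ranks do not count it. LHCB1.3 is listed at 9289 FPKM in nup1-1 on ABA in the authors' deposited ABA table, above LHCB1.2 at 3341 FPKM.

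**Figure D1:**
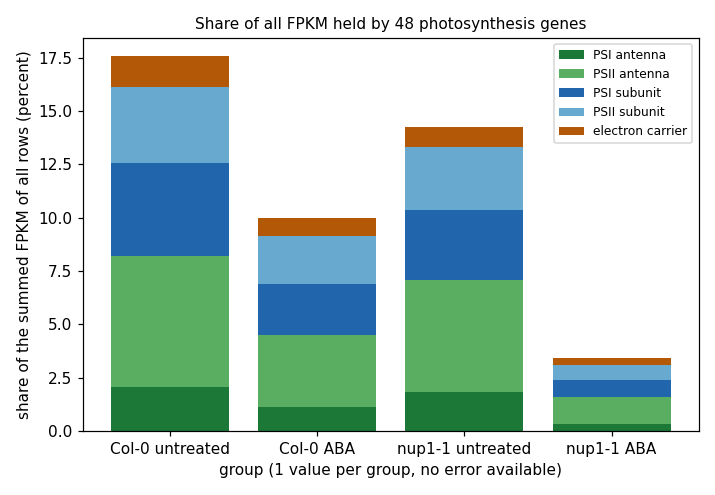
Share of the summed FPKM of all rows (percent, linear axis from 0) held by 48 photosynthesis genes in the 4 groups, stacked by complex. Rows with failed estimates, LHCB1.3 among them, are not counted. There is 1 value per group and no error. The share was 17.6% in untreated Col-0 and 3.44% in nup1-1 on ABA, and each complex was lowest in nup1-1 on ABA.

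The photosystem II antenna alone, without LHCB1.3, held 6.14% of all FPKM in untreated Col-0 and 1.26% in nup1-1 on ABA. Photosystem I subunits went from 4.37% to 0.793% between the same groups, photosystem II subunits from 3.56% to 0.712%, and the photosystem I antenna from 2.05% to 0.340%. The electron carriers went from 1.43% to 0.331%. Levels in untreated Col-0 ran from 2.67 FPKM for PSBP2 to 17116 FPKM for LHCB1.5 in the authors' deposited table, and 41 of the 48 stood at 1000 FPKM or more. The 7 below that were LHCA5, LHCA6, LHCB2.3, LHCB4.3, LHCB7, PSBP2 and PETE1.

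**Figure D2:**
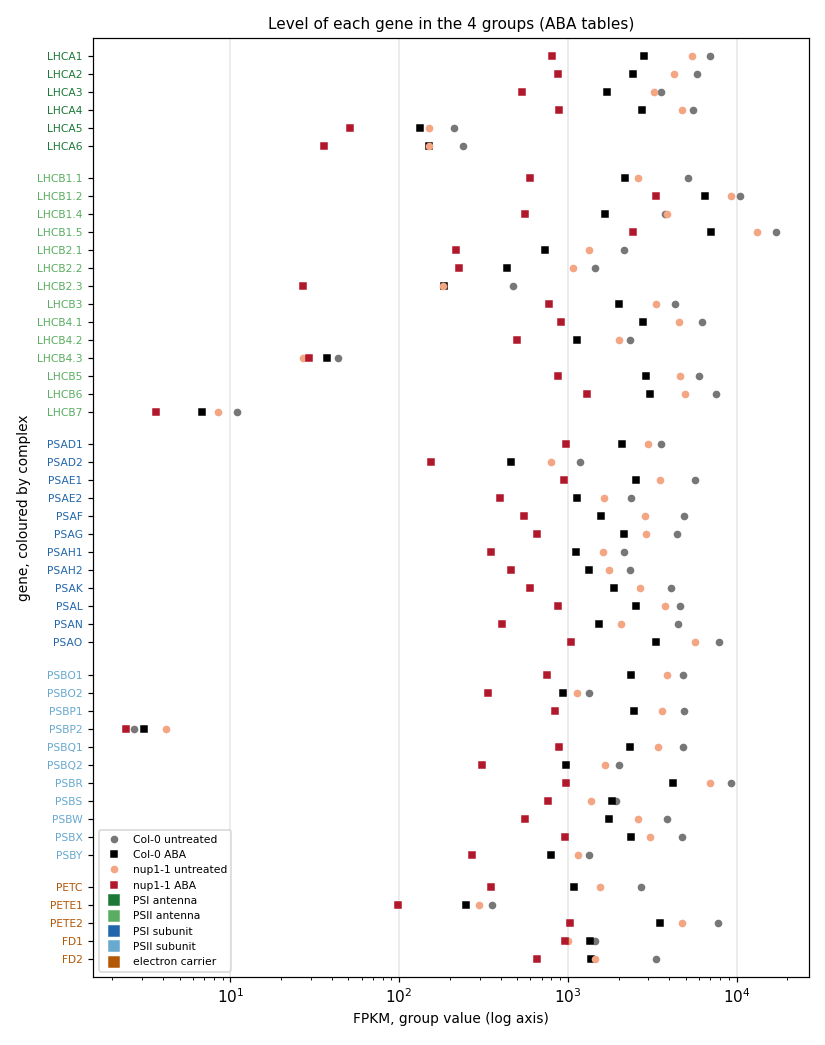
Level of each of the 48 genes in the 4 groups (FPKM, log axis), with gene names coloured by complex; Col-0 points come from the Col-0 ABA table and nup1-1 points from the nup1-1 ABA table, which were scaled separately. Nearly all genes have their lowest point in nup1-1 on ABA, while LHCB4.3, PSBP2 and FD1 have their 4 points close together.

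ABA lowered most of these transcripts in the wild type. In Col-0, 41 of 48 tested genes fell and none rose, beside 7.79% of all tested genes lower and 7.83% higher (15.6% in all). None rose at an unadjusted p under 0.05 either, in the authors' deposited test. The median log2 fold change was -1.05, a 2.07-fold fall, beside -0.02 over all tested genes. All 6 photosystem I antenna genes and all 12 photosystem I subunit genes fell. Of the photosystem II genes 12 of 14 antenna and 8 of 11 subunit genes fell, and of the carriers 3 of 5.

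In nup1-1 the falls on ABA were called in 46 of 48 genes and no rise was, beside 25.3% of all tested genes lower and 21.2% higher (46.6% in all). No gene rose at an unadjusted p under 0.05 there, by the authors' deposited test. The median was -2.13, a 4.38-fold fall, beside 0.002 over all tested genes. By complex the medians were -2.35 for the photosystem I antenna, -2.19 for the photosystem II antenna, -2.16 for photosystem I subunits, -2.09 for photosystem II subunits and -1.59 for the carriers. The same medians in Col-0 lay between -1.17 and -1.01. A log2 change of -2 or lower was seen in 32 genes in nup1-1 and in none in Col-0. In bulk seedlings, fewer green cells and less RNA per green cell cannot be told apart.

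**Figure D3:**
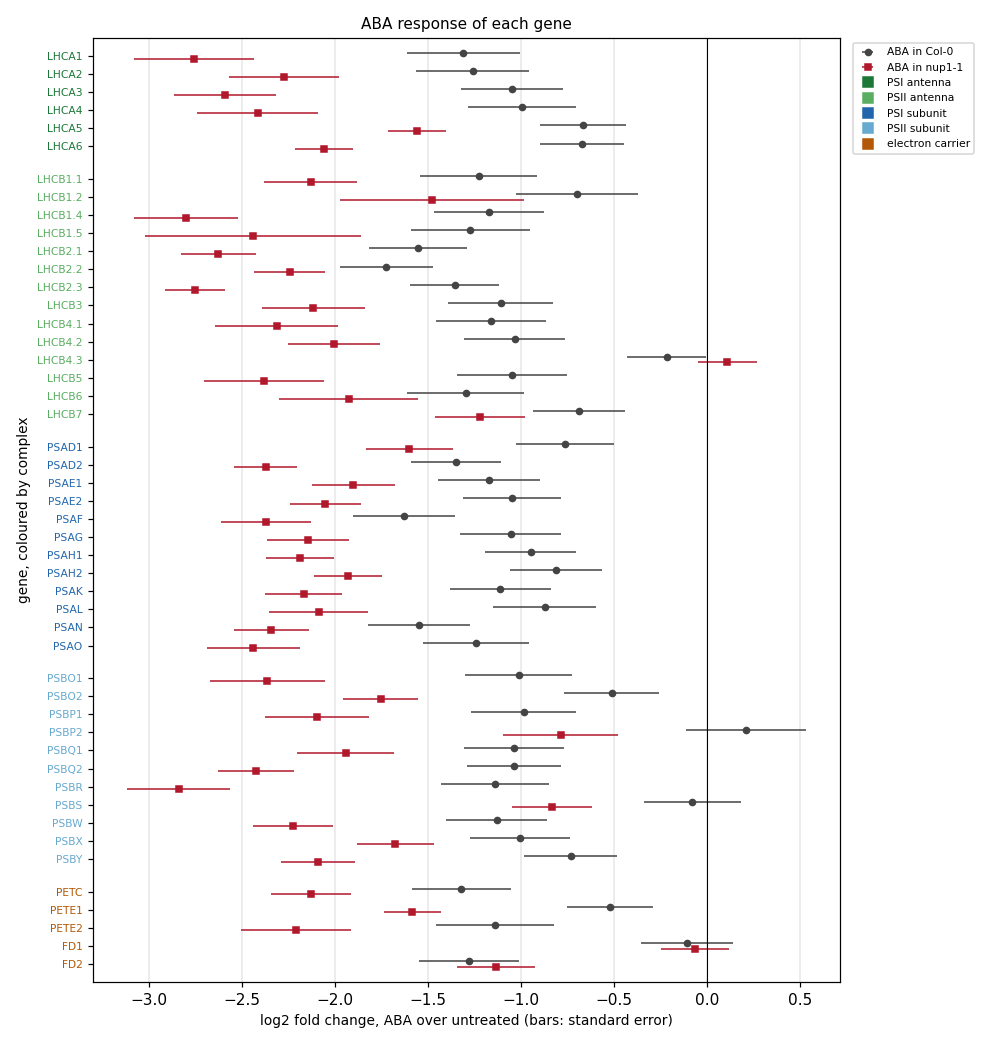
Log2 fold change of each gene on ABA over untreated in Col-0 (circles) and in nup1-1 (squares), with bars of 1 standard error and gene names coloured by complex. Most circles lie near -1 and most squares near -2, while FD1 and LHCB4.3 lie near 0 in both genotypes and PSBS and PSBP2 lie near 0 in Col-0.

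The photosystem I antenna genes code for proteins that sit in a belt on one side of the photosystem I core. LHCA1 (AT3G54890, chromosome 3, 20339504 to 20341176) stood highest of them in both untreated groups and in Col-0 on ABA. In nup1-1 on ABA the authors' deposited table has LHCA4 at 886 and LHCA2 at 874 FPKM above it. The authors' deposited tables give LHCA1 6975 FPKM untreated and 2812 FPKM on ABA in Col-0, and 5423 FPKM untreated and 801 FPKM on ABA in nup1-1. Its log2 changes were -1.31 ± 0.30 in Col-0 and -2.76 ± 0.32 in nup1-1, so 14.8% of the untreated level was left in the mutant. LHCA2, LHCA3 and LHCA4, the other main belt genes, changed by -2.28 ± 0.30, -2.59 ± 0.28 and -2.42 ± 0.33 in nup1-1. LHCA5 and LHCA6 are minor antenna genes whose products help to join photosystem I to the chloroplast NDH complex. LHCA5 had the smallest change of the antenna on ABA in nup1-1, -1.56 ± 0.16, with 151 FPKM untreated and 51.3 FPKM on ABA in the authors' deposited table. The authors' deposited tables give LHCA6 239 FPKM untreated and 150.0 FPKM on ABA in Col-0, and 150.4 FPKM untreated and 36.0 FPKM on ABA in nup1-1, a fall in both.

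The main trimeric antenna of photosystem II, known as LHCII, is built from LHCB1, LHCB2 and LHCB3 proteins. LHCB1.5 (AT2G34420, chromosome 2, 14522524 to 14523568) had 17116 FPKM untreated and 7084 FPKM on ABA in Col-0 and 13274 FPKM untreated and 2442 FPKM on ABA in nup1-1 in the authors' deposited tables. Its log2 changes were -1.27 ± 0.32 and -2.44 ± 0.58, the latter with the largest standard error of the 48 genes. LHCB1.4, its neighbour on chromosome 2, had the deepest fall of the photosystem II antenna in nup1-1. In the authors' deposited tables LHCB1.4 stood at 3740.2 FPKM untreated and 1658 FPKM on ABA in Col-0 and at 3869 FPKM untreated and 554 FPKM on ABA in nup1-1, changes of -1.17 ± 0.30 and -2.80 ± 0.28. In the authors' deposited genotype tables LHCB1.4 had 3748 FPKM in Col-0 against 3372 FPKM in nup1-1 untreated, without a call (-0.15 ± 0.39), and 1912 against 550.4 FPKM on ABA, a called difference (-1.80 ± 0.19).

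LHCB1.2 was the one measured LHCB1 gene without a call in Col-0, at -0.70 ± 0.33 (q = 0.15 in the authors' deposited table), and it fell in nup1-1, at -1.48 ± 0.50 (q = 0.0227 in the authors' deposited table). The authors' deposited tables give LHCB1.2 10496 FPKM untreated and 6462 FPKM on ABA in Col-0, and 9308 FPKM untreated and 3341 FPKM on ABA in nup1-1. LHCB1.1 fell, at -1.23 ± 0.31 and -2.13 ± 0.25. LHCB1.1, LHCB1.2 and the unmeasured LHCB1.3 lie side by side on chromosome 1. Their coding sequences in TAIR10.1 are 95.7% to 96.4% identical over 804 aligned bases, and LHCB1.4 and LHCB1.5 are 92.5% identical, so the counting could split reads between these copies and single LHCB1 values are uncertain.

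Within LHCB2, whose proteins are known for their part in moving antenna between the photosystems, all 3 genes fell in both genotypes. LHCB2.1 and LHCB2.2, 92.9% identical over their aligned coding bases, changed by -1.55 ± 0.26 and -1.72 ± 0.25 in Col-0 and by -2.63 ± 0.20 and -2.25 ± 0.19 in nup1-1. LHCB2.3 (AT3G27690, chromosome 3, 10255906 to 10257489), at most 84.7% identical to the other two, had 471 FPKM untreated and 184 FPKM on ABA in Col-0 and 183 FPKM untreated and 27.1 FPKM on ABA in nup1-1 in the authors' deposited tables. Its changes were -1.36 ± 0.24 and -2.76 ± 0.16. Its share of the LHCB2 sum was 11.6% and 13.6% in Col-0 without and with ABA, and 7.05% and 5.77% in nup1-1. The LHCB2.3 share was thus lower in the mutant in both media.

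The monomeric antennae link LHCII to the photosystem II core. LHCB4.1 changed by -1.16 ± 0.30 in Col-0 and -2.31 ± 0.33 in nup1-1, LHCB4.2 by -1.03 ± 0.27 and -2.01 ± 0.25, LHCB5 by -1.05 ± 0.30 and -2.38 ± 0.32, and LHCB6 by -1.30 ± 0.32 and -1.93 ± 0.37. LHCB4.3 (AT2G40100, chromosome 2, 16745628 to 16747424), a weakly expressed relative also called LHCB8, had no call for ABA in either genotype. The authors' deposited tables give LHCB4.3 43.3 FPKM untreated and 37.3 FPKM on ABA in Col-0 (q = 0.633) and 27.1 FPKM untreated and 29.2 FPKM on ABA in nup1-1 (q = 0.609). Its log2 changes were -0.22 ± 0.21 and 0.11 ± 0.16. LHCB4.3 thus made up 0.501% of the LHCB4 sum in untreated Col-0 and 2.03% in nup1-1 on ABA. LHCB7, a rare antenna protein gene, fell in both genotypes. The authors' deposited tables give LHCB7 11.0 FPKM untreated and 6.81 FPKM on ABA in Col-0, and 8.47 FPKM untreated and 3.64 FPKM on ABA in nup1-1.

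The nuclear photosystem I subunits include the stromal proteins PSAD and PSAE, where ferredoxin docks, and PSAF and PSAN, on the side where plastocyanin docks. PSAH, PSAL and PSAO lie where LHCII can attach, and PSAG and PSAK flank the core. In Col-0 the changes ran from -1.63 ± 0.28 for PSAF and -1.55 ± 0.27 for PSAN to -0.76 ± 0.26 for PSAD1. In nup1-1 PSAO (AT1G08380, chromosome 1, 2640803 to 2641934) had the deepest fall, -2.44 ± 0.25. The authors' deposited tables give PSAO 7862 FPKM untreated and 3322 FPKM on ABA in Col-0 and 5634 FPKM untreated and 1038 FPKM on ABA in nup1-1, the highest level of the 12 subunits in untreated Col-0. PSAD1 had the smallest fall, -1.60 ± 0.23, with 3570.1 FPKM untreated and 2101 FPKM on ABA in Col-0 and 2968 FPKM untreated and 978 FPKM on ABA in nup1-1 in the authors' deposited tables. PSAD2, its copy, fell, at -1.35 ± 0.24 and -2.38 ± 0.17. PSAD1 therefore held 75.2% of the PSAD sum in untreated Col-0, 82.0% in Col-0 on ABA, 78.8% in untreated nup1-1 and 86.4% in nup1-1 on ABA. Of the PSAE sum, PSAE1 held 70.7%, 68.9%, 68.2% and 70.4% in the same order.

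Among photosystem II subunits the deepest fall in nup1-1 was that of PSBR (AT1G79040, chromosome 1, 29735952 to 29737009), a small protein gene needed for stable binding of the oxygen-evolving proteins. PSBR was the most abundant of these genes in untreated Col-0. The authors' deposited tables give PSBR 9233 FPKM untreated and 4185 FPKM on ABA in Col-0 and 6985 FPKM untreated and 974 FPKM on ABA in nup1-1, changes of -1.14 ± 0.29 and -2.84 ± 0.28. Of the oxygen-evolving proteins, PSBO1, PSBP1, PSBQ1 and PSBQ2 changed by between -1.04 ± 0.25 and -0.99 ± 0.28 in Col-0 and between -2.43 ± 0.20 and -1.94 ± 0.26 in nup1-1. PSBO2, the minor PSBO gene, had no call in Col-0 at -0.51 ± 0.25 (q = 0.184 in the authors' deposited table) and fell in nup1-1, at -1.76 ± 0.20. Its share of the PSBO sum was 21.8% untreated and 28.3% on ABA in Col-0, and 22.5% and 30.7% in nup1-1.

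PSBS (AT1G44575), whose protein switches the antenna to heat dissipation in excess light, had no call for ABA in the wild type. It had 1938 FPKM untreated and 1835 FPKM on ABA there in the authors' deposited table (q = 0.933), a log2 change of -0.08 ± 0.26. In nup1-1 PSBS had 1362 FPKM untreated and 764 FPKM on ABA in the authors' deposited table and fell, at -0.83 ± 0.21. PSBP2, a weakly expressed copy of PSBP1, stood between 2.40 and 4.14 FPKM in both authors' deposited ABA tables. Its coding sequence in TAIR10.1 has 378 bases against 792 in PSBP1, and its row overlaps another coding gene. PSBP2 had no call in Col-0 (0.21 ± 0.32) and fell in nup1-1, at -0.79 ± 0.31. The smaller subunits PSBW, PSBX and PSBY changed by -2.23 ± 0.22, -1.68 ± 0.21 and -2.09 ± 0.20 in nup1-1.

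Among the carriers, PETC, the gene of the Rieske iron-sulfur protein, fell, at -1.32 ± 0.27 in Col-0 and -2.13 ± 0.22 in nup1-1. PETE2 (AT1G20340, chromosome 1, 7042046 to 7043392), the main plastocyanin gene, had 7763 FPKM untreated and 3522 FPKM on ABA in Col-0 and 4762 FPKM untreated and 1029.5 FPKM on ABA in nup1-1 in the authors' deposited tables, changes of -1.14 ± 0.32 and -2.21 ± 0.30. PETE1, the minor plastocyanin gene, had no call in Col-0 at -0.52 ± 0.23 (q = 0.108 in the authors' deposited table) and fell in nup1-1, at -1.59 ± 0.15. The PETE1 share of the pair was 4.40% and 6.61% in Col-0 and 5.86% and 8.76% in nup1-1, without and with ABA.

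The ferredoxins of the leaf, which hand electrons from photosystem I to NADP reduction and other uses, parted from each other. FD2 (AT1G60950, chromosome 1, 22444307 to 22445291), the main leaf form, had 3346 FPKM untreated and 1376 FPKM on ABA in Col-0 and 1445 FPKM untreated and 658 FPKM on ABA in nup1-1 in the authors' deposited tables, and fell in both. Its log2 changes, -1.28 ± 0.27 and -1.13 ± 0.21, lay 0.15 apart. FD1 (AT1G10960, chromosome 1, 3664187 to 3665040) had 1451 FPKM untreated and 1348 FPKM on ABA in Col-0 and 999.6 FPKM untreated and 956 FPKM on ABA in nup1-1 in the authors' deposited tables. No call was made for FD1 on ABA in Col-0 (-0.11 ± 0.25, q = 0.893 in the authors' deposited table) or in nup1-1 (-0.06 ± 0.18, q = 0.8 in the authors' deposited table). FD1 was thus 30.3% of the pair in untreated Col-0, 49.5% in Col-0 on ABA, 40.9% in untreated nup1-1 and 59.2% in nup1-1 on ABA. The coding sequences of FD1 and FD2 are 79.6% identical over 447 aligned bases. These shares of gene pairs are descriptions without a test.

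Without ABA, nup1-1 had lower levels of a few of these genes. In untreated seedlings 7 of 48 were lower in nup1-1 and none was higher, beside 3.92% of all tested genes lower and 2.68% higher (6.6% in all). At an unadjusted p under 0.05, 25 were lower and none was higher by the authors' deposited test. The median log2 difference was -0.67, beside -0.02 over all tested genes, and 47 of 48 values lay below 0. Standard errors here had a median of 0.34.

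The 7 lower genes came from 4 of the 5 complexes. LHCB2.3 differed most, with Col-0 at 472 FPKM and nup1-1 at 159 FPKM in the authors' deposited table, -1.57 ± 0.24 on the log2 scale. FD2 stood at 3353 and 1259.8 FPKM in the same authors' deposited table, a difference of -1.41 ± 0.33. PSAN differed by -1.33 ± 0.34, PETC by -1.02 ± 0.33, LHCB4.3 by -0.88 ± 0.22, LHCA6 by -0.87 ± 0.23 and PSAD2 by -0.77 ± 0.27. PSAD2 passed narrowly, with q = 0.04997 in the authors' deposited table. No photosystem II subunit was called, and PSBP2 alone was higher in nup1-1, at 0.43 ± 0.35 without a call. With calls limited to q under 0.01, or to log2 sizes of 1 or more, 4 genes were lower.

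On ABA nearly all of the genes were lower in the mutant. Here 47 of 48 genes were lower in nup1-1 than in Col-0 and none was higher, beside 23.3% of all tested genes lower and 15.4% higher (38.7% in all). None was higher at an unadjusted p under 0.05 in the authors' deposited test. The median log2 difference was -1.76, a 3.38-fold lower level, beside -0.01 over all tested genes. With levels taken from the ABA tables it was -1.54, since the tables are scaled separately.

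**Figure D4:**
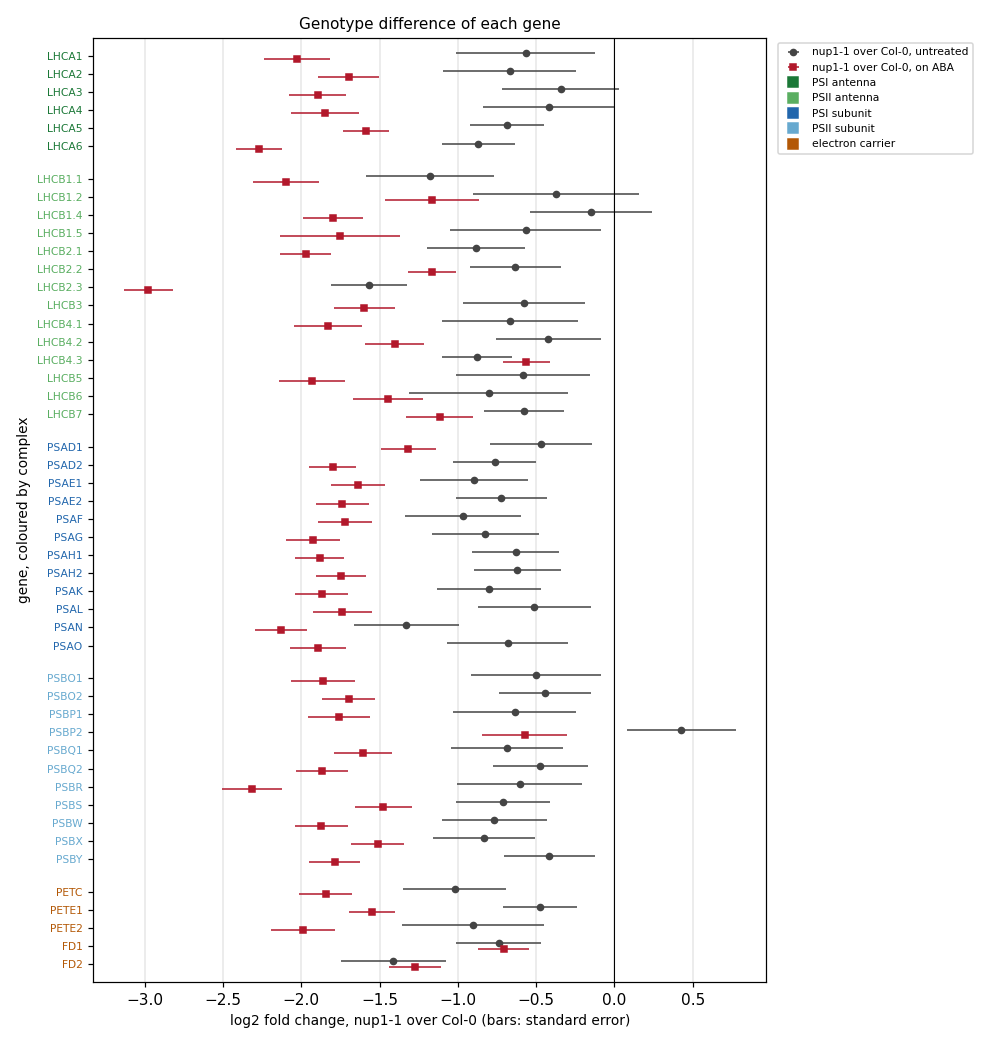
Log2 difference of each gene, nup1-1 over Col-0, in untreated seedlings (circles) and on ABA (squares), with bars of 1 standard error and gene names coloured by complex. The circles lie mostly between -1 and 0 and the squares mostly between -2 and -1.3, while LHCB4.3, PSBP2 and FD1 show squares nearest to 0.

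LHCB2.3 again differed most, with Col-0 at 212 FPKM and nup1-1 at 26.9 FPKM in the authors' deposited table, -2.98 ± 0.16. PSBR differed by -2.32 ± 0.19, LHCA6 by -2.27 ± 0.15, PSAN by -2.13 ± 0.17 and LHCB1.1 by -2.10 ± 0.21. The 3 values nearest to 0 were those of LHCB4.3 (-0.56 ± 0.15), PSBP2 (-0.57 ± 0.27) and FD1 (-0.71 ± 0.16). PSBP2 was the one gene without a call (q = 0.0855 in the authors' deposited table). PSBS, which had no call for ABA in Col-0, was lower in nup1-1 on ABA, with 2113 and 759 FPKM in the authors' deposited table. FD1 and LHCB4.3 thus carried a genotype difference on ABA without an ABA call in either genotype. Their genotype differences were not limited to ABA. In untreated seedlings FD1 differed by -0.74 ± 0.27 without a call (q = 0.0756 in the authors' deposited table). LHCB4.3 differed there by -0.88 ± 0.22 with a call, and PSBS by -0.71 ± 0.30 without one. The genotype comparison on ABA shares a group with each of the ABA comparisons, so it is not independent of them.

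The difference of the ABA responses was tested gene by gene with a Wald test on both ABA tables, which share no group. Its q is adjusted over 19487 genes. The fall was deeper in nup1-1 for 25 of 48 genes and shallower for none, beside 11.6% of all genes in the test lower and 4.67% higher (16.3% in all). At an unadjusted p under 0.05 of the Wald test 40 were lower and none was higher. The median difference was -1.06, so the mutant's response was about 1 log2 unit deeper. The count rests on the reconstructed errors, which can be too small for strong changes. With errors from the deposited p wherever it is above its lowest value, 25 genes passed the Wald test, and with the errors of the genes at the lowest p also enlarged by 1.33, the largest ratio above, 12 passed. With all errors from the deposited p, 0 genes passed the Wald test and 17 had an unadjusted p under 0.05. That p cannot go below 5e-05, which sets a lower limit to these errors for strong changes.

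By complex, 5 of 6 photosystem I antenna genes, 8 of 12 photosystem I subunits, 7 of 11 photosystem II subunits, 4 of 14 photosystem II antenna genes and 1 of 5 carriers passed. The photosystem I antenna had the lowest median difference, -1.41, with LHCA3 at -1.54 ± 0.39 and LHCA6 at -1.39 ± 0.27. LHCA2 did not pass, at -1.02 ± 0.42 (Wald q = 0.0852). PSBR differed by -1.70 ± 0.40 (Wald q = 0.000396), the largest value of the 48. LHCB1.4 (-1.63 ± 0.41), LHCB2.3 (-1.40 ± 0.29), LHCB5 (-1.34 ± 0.44) and LHCB2.1 (-1.07 ± 0.33) were the photosystem II antenna genes that passed. PETE1 (-1.06 ± 0.28) was the one carrier, while PETE2 had a similar value with a larger error, -1.07 ± 0.43 (Wald q = 0.0733). Whether the complexes differ from one another was not tested.

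**Figure D5:**
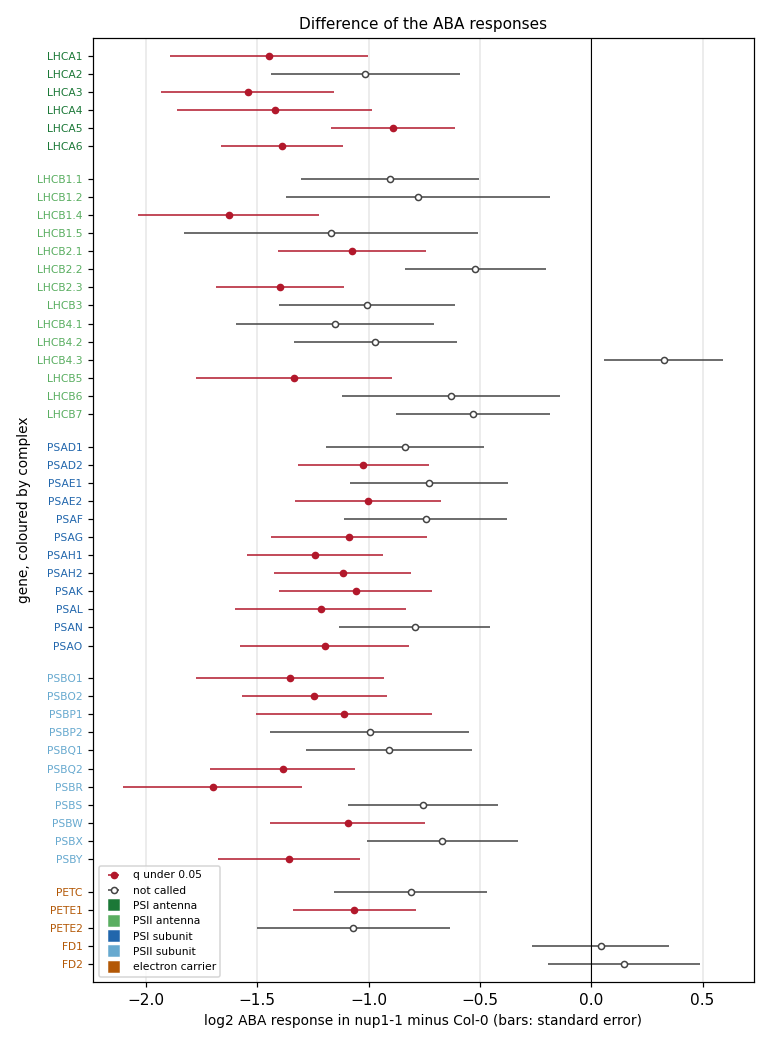
Log2 ABA response in nup1-1 minus that in Col-0 for each gene, with bars of 1 standard error; filled points have a Wald q under 0.05 and gene names are coloured by complex. The filled points lie between -1.70 and -0.89, and LHCB4.3, FD1 and FD2 are the 3 genes above 0.

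Both ferredoxin genes stood near 0 in this test. FD2 differed by 0.15 ± 0.34, with a 95% interval of -0.52 to 0.82, and FD1 by 0.04 ± 0.31, with -0.56 to 0.65. LHCB4.3 differed by 0.33 ± 0.27, with -0.20 to 0.85. For PSBS the difference was -0.76 ± 0.34 with an interval of -1.41 to -0.10, and its test did not pass (Wald q = 0.114).

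Markers of seed tissue, roots and the stomatal lineage were summed in the same groups, and none of them was at 0 in any. The summed level of 8 seed markers, among them the storage protein genes CRA1 and CRC and the oleosin gene OLEO2, went from 21.3 to 3925 FPKM on ABA in Col-0 and from 8.15 to 5813 FPKM in nup1-1, in the authors' deposited ABA tables. Of these 8, 7 rose in Col-0 and 6 in nup1-1, and none was called lower. The lowest seed marker changes were -0.96 in Col-0 and -0.86 in nup1-1, without a call. Over all tested genes, 7.83% were higher and 7.79% lower in Col-0, and 21.2% and 25.3% in nup1-1. On ABA, the authors' deposited genotype table gives the seed sum as 4509.7 FPKM for Col-0 and 5772 FPKM for nup1-1. The seed sum was thus far higher on ABA than without it in both genotypes. Without ABA, the authors' deposited genotype table gives it as 21.4 FPKM for Col-0 and 7.11 FPKM for nup1-1, no marker being above 5.10 FPKM. Of the 8 markers, 2 were called lower in untreated nup1-1, beside 3.92% of all tested genes. On ABA, 4 were called higher in nup1-1 and 2 lower, beside 15.4% and 23.3% of all tested genes. Sums over 6 root markers, untreated and on ABA, were 79.2 and 87.1 FPKM in Col-0 and 94.96 and 129 FPKM in nup1-1 in the authors' deposited ABA tables. Sums over 4 stomatal lineage markers were 36.7 and 31.5 FPKM, and 34.8 and 35.5 FPKM, in the same order. Of the root markers 2 rose and 0 fell in Col-0, against 4 and 1 in nup1-1. Of the stomatal markers 0 rose and 1 fell in Col-0, against 2 and 1 in nup1-1. Their part in the falls was not tested.

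Other nuclear genes of the light reactions fell too; shares over all tested genes were 7.79% lower in Col-0 and 25.3% lower in nup1-1, and 11.6% for a deeper response in nup1-1. Of 13 genes for electron transport, ATP synthase and thylakoid regulation, 9 fell in Col-0 and all 13 in nup1-1, with medians of -0.69 and -1.68. FNR2, the gene of a leaf ferredoxin-NADP reductase, fell most in nup1-1 (-2.41 ± 0.21), and STN8, a thylakoid kinase gene, least (-0.65 ± 0.16). Of 10 genes of the chloroplast NDH complex, which returns electrons to the plastoquinone pool, 6 fell in Col-0 and all 10 in nup1-1, with medians of -0.70 and -2.28. NDHM fell most in nup1-1, at -2.52 ± 0.16, and PNSB2 least, at -0.74 ± 0.15. The ABA response was deeper in nup1-1 for 8 of the 10.

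Genes that assemble the photosystems or insert antenna proteins fell in part. Of 15, 9 fell in Col-0 and 13 in nup1-1, beside 7.79% and 25.3% of all tested genes, with medians of -0.78 and -0.87. A deeper response in nup1-1 was found for 4, beside 11.6% of all genes in that test. PPL1, a PsbP-like protein gene, had the deepest fall of the 15 in nup1-1, from 159 FPKM to 39.8 FPKM per the authors' deposited table. CAO, the gene of the cpSRP43 subunit that carries antenna proteins to the membrane, had the smallest called fall (-0.52 ± 0.18). cpSRP54 and Y3IP1 had no call for ABA in either genotype. Of the Calvin cycle list, 7 of 11 tested genes fell in Col-0 and 13 of 13 in nup1-1, with medians of -0.79 and -1.99. Of its 14 genes, 11 enter the Col-0 median and 13 the nup1-1 median, so these medians are over unlike sets. RCA, for Rubisco activase, had the deepest fall in nup1-1 (-2.79 ± 0.44) and RBCS2B, for a Rubisco small subunit, the smallest (-1.29 ± 0.25).

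The light-induced relatives of the antenna proteins went both ways. ELIP1 and ELIP2 encode early light-induced proteins, which bind pigment under light stress and during greening. ELIP1 rose from 69.5 to 186 FPKM in Col-0 and from 37.6 to 172 FPKM in nup1-1 in the authors' deposited tables, changes of 1.42 ± 0.23 and 2.19 ± 0.16. ELIP2 rose by 0.76 ± 0.25 and 0.47 ± 0.18. The one-helix protein gene OHP1, which acts in photosystem II assembly, fell, at -0.88 ± 0.24 and -1.36 ± 0.17. Its partner OHP2 changed by -0.64 ± 0.27 in Col-0 without a call and fell in nup1-1, at -1.71 ± 0.23.

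Further ferredoxin and ferredoxin reductase genes went both ways. FD3, the root ferredoxin gene, stood at 147 FPKM untreated and 204 FPKM on ABA in Col-0 and 122 FPKM untreated and 231 FPKM on ABA in nup1-1 in the authors' deposited tables, without a call in Col-0 (0.47 ± 0.23) and higher on ABA in nup1-1 (0.93 ± 0.15). The root reductase genes RFNR1 and RFNR2 rose in both genotypes, by 0.82 ± 0.22 and 0.69 ± 0.23 in Col-0 and by 1.33 ± 0.15 and 0.46 ± 0.15 in nup1-1. FD4 is listed at 0 in both untreated groups and at 11.0 and 28.0 FPKM on ABA in Col-0 and nup1-1 in the authors' deposited tables, and was called higher in both. FDC1, for a ferredoxin-like protein of the chloroplast, fell, at -0.88 ± 0.23 and -1.10 ± 0.15. FDC2 changed by -0.26 ± 0.22 in Col-0 without a call and fell in nup1-1, at -0.61 ± 0.15.

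Of 6 regulators known from greening and ABA signalling, GLK2 alone was called lower on ABA. The shares lower over all tested genes were 7.79% in Col-0 and 25.3% in nup1-1. Of the 6, 0 were called higher in Col-0 and 2 in nup1-1, beside 7.83% and 21.2% of all tested genes. Counts from so few genes are given as description and were not tested. GLK1, a transcription factor gene of chloroplast development, had no call in any of the 4 comparisons, with ABA changes of -0.29 ± 0.23 and -0.22 ± 0.15. Its partner GLK2 fell on ABA, at -0.79 ± 0.23 and -1.06 ± 0.15 and was lower in nup1-1 in both media, at -1.20 ± 0.23 and -1.48 ± 0.15. HY5, of light signalling, had no ABA call (-0.13 ± 0.22 and -0.06 ± 0.16) and was lower in nup1-1 on ABA (-0.49 ± 0.15). The GATA factor genes GNC and GNL changed by -0.43 ± 0.22 and -0.63 ± 0.24 in Col-0 without a call and rose in nup1-1 by 0.53 ± 0.16 and 0.83 ± 0.23. Both were lower in untreated nup1-1 (-0.90 ± 0.23 and -1.48 ± 0.27). ABI4, an ABA-response factor gene, had 0.0784 and 0.0258 FPKM in untreated Col-0 and nup1-1 in the authors' deposited table. Its log2 changes on ABA, 6.52 in Col-0 and 10.4 in nup1-1, had no call in either genotype. ABI4 had 8.24 FPKM on ABA in Col-0 against 38.7 FPKM in nup1-1 in the authors' deposited table, a difference that was called (q = 0.000272).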

How the data were processed

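RNA-seq of 12 seedling samples in 4 groups of 3 was used as 4 deposited tables. Per the submitters' processing notes, FastQC, Trimmomatic, TopHat and build TAIR10 were used; no source used here states versions or the program that wrote the tables. The authors deposited 1 FPKM value per group, a test statistic (a score) and p-values and q-values per gene. The lowest deposited p was 5e-05. Rows whose estimate failed from too many reads were left out.

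Log2 fold changes were recomputed from FPKM without a pseudocount. The test statistic was multiplied by a constant of 1.74 in each table, fitted to give the deposited p under a normal distribution at the median gene; the standard error is the log2 fold change over that product. For strong changes the product can exceed what the deposited p gives, so such errors can be too small. The difference of the ABA responses was tested by a 2-sided Wald test with Benjamini-Hochberg adjusted q over 19487 genes that both tables test and that reach 1 FPKM in some group. The calculation was tested on simulated data. Noise there was drawn from the same reconstructed errors, so that run could not show whether these errors are too small.

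Promoters and coding sequences were read from TAIR10.1 by RefSeq coordinates. Of 27408 nuclear rows with a RefSeq locus tag, 42.1% share a start or end with RefSeq to the base. Coding sequences were aligned with Biopython 1.88, using the longest isoform and counting bases aligned without a gap. Some rows share their coordinates with an overlapping neighbour that has its own row; whether counting used strand is not stated here. Python 3.11.15, pandas 2.3.3 and SciPy 1.17.1 were used.

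The genes and all lists were chosen with earlier results of these data known. Within each complex, values are given for the genes with the deepest and the smallest ABA change in nup1-1, the most abundant gene in untreated Col-0 and genes whose calls differ from the rest; of the other lists, the called genes with the deepest and smallest change in nup1-1, and all regulators and further ferredoxin genes. ELIP and OHP genes and further genes were named after their values were seen. Alternatives were another q or fold threshold, a filter on low values, centring, pseudocounts, other tables, other errors, and leaving out the LHCB1 and LHCB2 copies.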

Additional observations from a re-analysis of the deposited data

Results flagged for a closer look

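The genes below had an ABA response that differed between nup1-1 and Col-0 by the Wald test; values are the log2 response in nup1-1 minus that in Col-0, from 1 value per group. Of the 25 genes of the photosystems and carriers, 12 also passed with enlarged errors, namely LHCA3, LHCA5, LHCA6, LHCB1.4, LHCB2.3, PSAH1, PSAH2, PSBO2, PSBQ2, PSBR, PSBY and PETE1. In the photosystem I antenna, those of the 25 were LHCA1 with -1.45 ± 0.44, LHCA3 with -1.54 ± 0.39, LHCA4 with -1.42 ± 0.44, LHCA5 with -0.89 ± 0.28 and LHCA6 with -1.39 ± 0.27. In the photosystem II antenna, they were LHCB1.4 with -1.63 ± 0.41, LHCB2.1 with -1.07 ± 0.33, LHCB2.3 with -1.40 ± 0.29 and LHCB5 with -1.34 ± 0.44. Among photosystem I subunits, PSAD2 had -1.02 ± 0.29, PSAE2 -1.004 ± 0.33, PSAG -1.09 ± 0.35, PSAH1 -1.24 ± 0.31, PSAH2 -1.12 ± 0.31, PSAK -1.06 ± 0.34, PSAL -1.22 ± 0.38 and PSAO -1.20 ± 0.38. Among photosystem II subunits, PSBO1 had -1.35 ± 0.42, PSBO2 -1.24 ± 0.33, PSBP1 -1.11 ± 0.40, PSBQ2 -1.39 ± 0.33, PSBR -1.70 ± 0.40, PSBW -1.09 ± 0.35 and PSBY -1.36 ± 0.32. PETE1 had -1.06 ± 0.28.

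Of 82 tested genes of the other lists, 11 responded higher in nup1-1 and 27 lower, beside 4.67% and 11.6% of all genes in the test. Those responding higher included 6 of 8 seed and 2 of 6 root markers. Those responding lower included 7 of 13 electron transport, 8 of 10 NDH, 7 of 11 Calvin cycle and 4 of 15 assembly genes. Among the antenna relatives and regulators, ELIP1 had 0.77 ± 0.28 and OHP2 -1.07 ± 0.36, and the GATA factor genes GNC and GNL had 0.96 ± 0.27 and 1.46 ± 0.33. ELIP1, GNC and GNL thus had the higher response in nup1-1, and for all 3 the untreated level was lower in nup1-1 than in Col-0, with differences of -1.09, -0.90 and -1.48 on the log2 scale. None of these 3 was called for genotype on ABA.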

How the results depend on the processing

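No setting that was run changed the direction of a called gene or of a median. The count of genes lower in untreated nup1-1, 7, became 4 at q under 0.01 and 4 with log2 sizes of 1 or more, and 6 when fold changes were centred. The count with a different ABA response, 25, became 12 at q under 0.01 and 0 with errors from the deposited p, 27 when centred and 24 from the genotype tables, all 24 among the 25. Settings chosen after seeing the data gave 25 with errors from the deposited p where it is above its lowest value, and 12, all among the 25, when the other errors were also enlarged. The count thus depends on errors that the tables do not give directly. The median genotype difference on ABA, -1.76, became -1.54 with levels from the other tables. Without the 15 tested genes whose row overlaps another coding gene, also chosen after seeing the data, 27 of 33 fell in Col-0 on ABA and 16 of 33 had a different response; fewer genes were counted. All other counts stayed within 1.5 times, and all other medians within 1 median standard error, also without the LHCB1 and LHCB2 copies. No paired analysis was possible because the tables hold no value per sample, and leaving out single replicates was not run for the same reason. Depth is unknown, so what it limits could not be given; q-values cannot show effects beyond the lowest deposited p.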

Other observations

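Promoter letters differed between complexes in these windows of 250 bases, as noticed after the counts were seen and without a test. CCAAT was found in 14 of 15 photosystem II antenna genes and in 5 of 6 photosystem I antenna genes, but in 2 of 11 photosystem II subunit genes. Photosystem I subunits, with 7 of 12, and carriers, with 4 of 5, lay between these, beside 46.0% of all windows. ACGTGNC was found in 7 of 15 photosystem II antenna genes and 4 of 11 photosystem II subunit genes. It was in 2 of 6 photosystem I antenna genes and 2 of 12 photosystem I subunit genes, beside 8.57% of all windows. Of the carriers, PETE2 alone held ACGTGNC.

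Across the 48 genes the ABA responses in Col-0 and nup1-1, from tables that share no group, had a Pearson r of 0.768 and a Spearman rho of 0.669; genes share their libraries and are not replicates. The 41 genes at 1000 FPKM or more in untreated Col-0 had a median ABA response of -1.11 in Col-0 and -2.17 in nup1-1. The 7 less abundant genes had -0.67 and -1.56. The median genotype difference without ABA was -0.67 and -0.68 in these groups of genes.

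LHCB1.3 carries the mark for too many reads in all 4 of the authors' deposited tables. Its nup1-1 ABA value is listed at 9289 FPKM in the authors' deposited ABA table, and at 0 in the 3 other groups, where the estimate failed.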
